A study of Mus musculus with 8 samples.

Results

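The NR4A, EGR and NFAT transcription factors that T cells use to read antigen receptor signal were followed in RNA sequencing of in vitro induced regulatory T cells (iTreg). The genes were chosen by name, as the members Nr4a1, Nr4a2, Nr4a3, Egr1, Egr2, Egr3, Nfatc1, Nfatc2 and Nfatc3, and all 9 were found among the 23361 gene symbols measured. The study asked how iTreg that carry Neuropilin-1 (Nrp-1), a co-receptor used as a marker of thymus-derived Treg, differ from iTreg that do not. There were 4 libraries of the Nrp-1+ subset and 4 of the Nrp-1- subset. Both groups came from naive CD4+ T cells of WT mice with a red fluorescent Foxp3 reporter (Foxp3-RFP), and both were cultured with anti-CD3/CD28 beads, IL-2 at 50 U/ml and TGF-β at 2 ng/ml for 3 days. Living CD4+ cells with the Foxp3-RFP signal were then sorted by surface Nrp-1, so the groups shared every treatment and differed only in the last gate. One field of the labels gives day 5 in place of the 3 days of culture. The study's methods describe young adult mice. The libraries are labelled as biological replicates, but nothing says whether they came from separate mice or cultures, so the p-values measure the spread between these samples only.

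When the antigen receptor is engaged, calcium enters the cell, the phosphatase calcineurin removes phosphates from NFAT proteins and these move into the nucleus. EGR and NR4A genes are immediate early genes, switched on within the same signal through SRF, CREB and MEF2 proteins and, for some of them, through NFAT itself. In T cells EGR2, EGR3 and the NR4A proteins are known for restraint of activation, and NR4A and NFAT proteins for a role in Foxp3 expression, whereas NFAT proteins are controlled mainly by their position in the cell, which mRNA does not show.

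The promoters of the NR4A genes are shown because the 3 relatives share more of one element than other genes do. RefSeq (GRCm38.p6) gave windows of 250 bases before a transcript start for 6 of the 9 members, 12 windows in all, and for each gene the one whose start lies in the most GENCODE transcripts (for Nfatc3, the first listed) is described. In the NR4A windows capitals mark the CRE half-site TGACG, the core that CREB proteins bind, on either strand, and the EGR element GCGNGGGCG, the site of EGR proteins. The windows lie at chr15:101266596-101266845 on the plus strand, inside the annotated span of Nr4a1, at chr2:57124004-57124253 on the minus strand, just before the first base of Nr4a2, and at chr4:48045055-48045304 on the plus strand, across the annotated start of Nr4a3.

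Nr4a1: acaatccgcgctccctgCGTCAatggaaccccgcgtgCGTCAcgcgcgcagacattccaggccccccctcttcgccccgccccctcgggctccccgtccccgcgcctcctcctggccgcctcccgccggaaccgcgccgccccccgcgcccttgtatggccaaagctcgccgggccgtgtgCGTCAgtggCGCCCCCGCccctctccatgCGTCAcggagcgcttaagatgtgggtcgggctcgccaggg
Nr4a2: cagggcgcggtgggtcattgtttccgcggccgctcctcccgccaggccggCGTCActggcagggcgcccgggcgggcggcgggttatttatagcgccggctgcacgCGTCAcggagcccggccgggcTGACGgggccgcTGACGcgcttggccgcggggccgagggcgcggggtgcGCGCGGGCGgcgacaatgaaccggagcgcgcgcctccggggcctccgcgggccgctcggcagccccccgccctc
Nr4a3: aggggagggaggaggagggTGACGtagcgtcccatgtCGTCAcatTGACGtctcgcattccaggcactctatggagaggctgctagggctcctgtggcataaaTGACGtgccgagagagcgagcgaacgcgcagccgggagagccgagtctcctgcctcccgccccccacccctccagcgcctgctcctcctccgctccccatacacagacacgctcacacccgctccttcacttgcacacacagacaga

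Each of the 3 windows held 4 CRE half-sites, while 17.8% of 32851 RefSeq windows of this length held at least 1 and 0.137% held at least 4. The complete CRE palindrome TGACGTCA was in 1.55% of all windows and in none of the windows of the members. Nr4a1 had an EGR element at positions -60 to -52 and Nr4a2 had one at -74 to -66, counted back from the start, an element that 4.70% of all windows held. The NR4A site itself, AAAGGTCA, was in 1.34% of all windows and was not matched in the members' windows.

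Of the EGR family, Egr2 had a window (chr10:67537680-67537929, plus strand, inside the annotated span of the gene). It is shown for its CArG box, the site of SRF, which is in capitals together with its CRE half-sites.

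Egr2: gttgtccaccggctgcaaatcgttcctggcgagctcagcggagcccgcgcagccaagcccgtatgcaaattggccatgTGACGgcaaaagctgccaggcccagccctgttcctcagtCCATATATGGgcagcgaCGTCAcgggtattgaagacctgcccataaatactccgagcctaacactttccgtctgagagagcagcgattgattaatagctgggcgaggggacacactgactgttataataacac

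The CArG box lay at positions -133 to -124, between 2 CRE half-sites, and 1.47% of all windows held such a box. For Nfatc2, the member called between the subsets in the main test but not in every setting, the window at chr2:168590366-168590615 on the minus strand, inside the span of the gene, is shown with the NFAT core GGAAA in capitals.

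Nfatc2: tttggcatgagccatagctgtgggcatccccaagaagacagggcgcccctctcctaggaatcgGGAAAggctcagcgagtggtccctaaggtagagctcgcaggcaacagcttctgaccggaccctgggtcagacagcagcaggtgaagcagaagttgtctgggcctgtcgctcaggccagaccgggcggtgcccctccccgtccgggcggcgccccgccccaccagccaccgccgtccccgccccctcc

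It held 1 NFAT core, at -187 to -183, and no CRE half-site, EGR element or CArG box, and 55.6% of all windows held the NFAT core. The other Nfatc2 window, at chr2:168601658-168601907, held 3 NFAT cores, and 6.39% of all windows held 3 or more. Of the 5 Egr2 windows 1 held neither a CArG box nor a CRE half-site. The positions of these matches in the 6 windows are drawn in the map of motif matches.

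**Figure D1:**
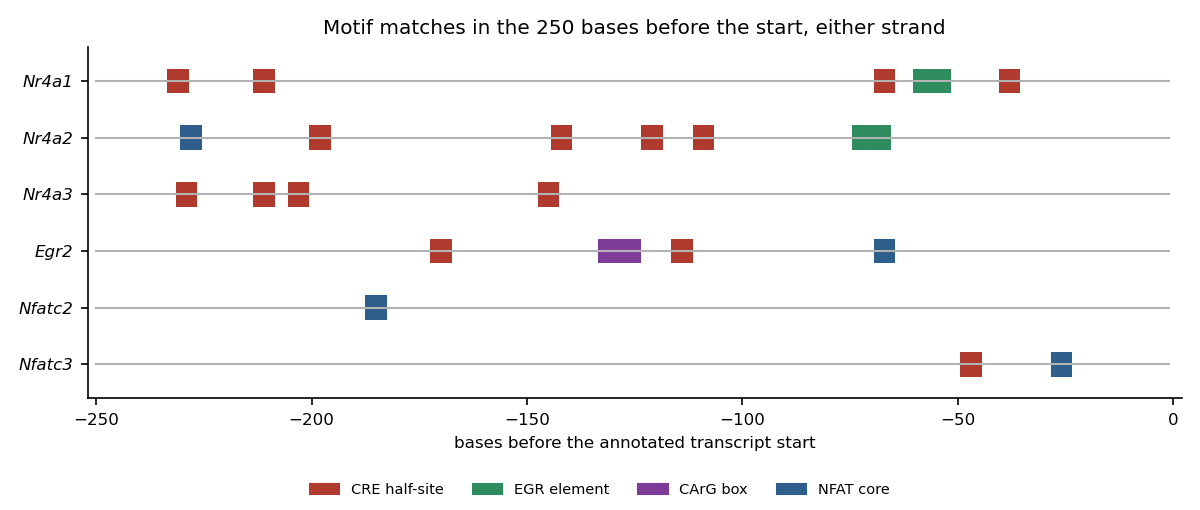
Motif matches on either strand in the 250 bases before a RefSeq transcript start of the 6 members with a window. The x axis gives bases before the start, each box is a match and each grey line a window, and the 3 NR4A windows hold 4 CRE half-sites each against 2 for Egr2, 1 for Nfatc3 and 0 for Nfatc2.

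The labels of the cells were checked first. Nrp1, the gene behind the sort, stood at 21.5 ± 0.709 FPKM (SD, n = 4; fragments scaled to transcript length and to the mapped fragments of the library) in Nrp-1+ iTreg and at 4.95 ± 0.262 in Nrp-1- iTreg. All 7 T cell and Treg markers were present in both, 2 of them higher and 3 lower in Nrp-1+ iTreg. Cd4 was at 315 and 325 FPKM, Cd3d (437 against 496) and Cd3g (444 against 479) were lower, Il2ra was higher at 265.5 against 227.9 FPKM (adjusted p = 0.000108 by limma), and Foxp3 was at 116 (111.5 to 120.5) and 109 (107.1 to 109.9) FPKM (adjusted p = 0.0245 by limma). The Foxp3 call held in 13 of 17 alternative fits and was lost after quantile normalization and without Nrp-1+ replicate 2 or Nrp-1- replicate 2 or 3, while that of Cd3d held in 16 of 17 and that of Cd3g in 7 of 17. Of 26 markers of CD8 T cells, NK, B, myeloid, dendritic and red cells, 22 were under a mean of 1 FPKM, with Ms4a1 and Pax5 of B cells listed at 0 in all libraries. The exceptions were Cd79b, whose adjusted p was 0.282, and 3 that differed between the subsets. Cd8b1 was lower in Nrp-1+ iTreg (7.86 against 10.0 FPKM, beside Cd8a at 0.0571 and 0.0474), while Itgam (6.70 against 5.56) and the globin gene Hba-a1 (6.10 against 2.52) were higher, and the part of these in the results below was not tested. Sequencing depth, read from the steps between low FPKM values, came to about 15330000 to 23230000 fragments per library. Very short RNAs made up between 1.77% and 38.9% of all FPKM in the Nrp-1+ libraries and between 4.45% and 43.9% in the Nrp-1- libraries. Median-of-ratios size factors nevertheless lay between 0.998 and 1.004, so the level of the typical gene was even across libraries as deposited.

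Nr4a1, Egr1 and the 3 NFAT genes were well expressed in iTreg, and the members differed far more from each other than between the subsets. Over the 8 libraries the mean level, which FPKM gives per length, was 62.0 for Nfatc3, 41.7 for Nfatc1, 20.5 for Nfatc2, 19.3 for Nr4a1, 18.8 for Egr1, 6.27 for Nr4a3, 2.87 for Egr3, 1.84 for Egr2 and 0.284 for Nr4a2. The ranges of neighbours in that order were apart except in the middle: Nfatc2 and Nr4a1 overlapped, with Nfatc2 above Nr4a1 in 7 of 8 libraries, and so did Nr4a1 and Egr1, with Nr4a1 above Egr1 in 6 of 8. Each family therefore had 1 leading member in both subsets. Nr4a1 made up 74.5% ± 1.70 of the summed NR4A FPKM in Nrp-1+ iTreg and 74.8% ± 2.01 in Nrp-1- iTreg. Egr1 made up 80.1% ± 2.01 and 79.8% ± 1.22 of the EGR sum. In the NFAT sum Nfatc3 took 49.3% ± 0.826 and 50.6% ± 0.379, and Nfatc1 took 33.4% ± 0.792 and 33.7% ± 0.706.

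Between the subsets, 1 of the 8 members tested differed (12.5%), namely Nfatc2, which was 7.48% higher in Nrp-1+ iTreg, while 40.9% of the 10467 genes tested differed by the same rule (limma on log2(FPKM + 1), adjusted p under 0.05), 20.9% higher and 20.0% lower. No member had groups that did not overlap, against 39.5% of the genes tested (20.2% with Nrp-1+ iTreg higher). The contrast with other genes depended on scaling: with short RNA genes left out and the libraries rescaled, 4 members were higher (Nr4a1, Egr1, Egr3 and Nfatc2), beside 38.6% of genes in either direction. In 4 other settings 0 members were called, beside 25.8% to 40.7% of genes, and 0 were called without Nrp-1+ replicate 3 or 4 or Nrp-1- replicate 3 or 4, beside 35.8% to 38.0%. At an unadjusted p under 0.05 there were 2 members, Nfatc2 and Egr1, against 49.5% of genes. The median size of the log2 fold change, whatever its sign, was 0.08 for the members, 0.12 for all genes tested and 0.22 for genes that differed. The 95% intervals of the 8 members tested reached from -0.25 to 0.43 on the log2(FPKM + 1) scale, a scale that understates changes of low genes such as Egr2.

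**Figure D2:**
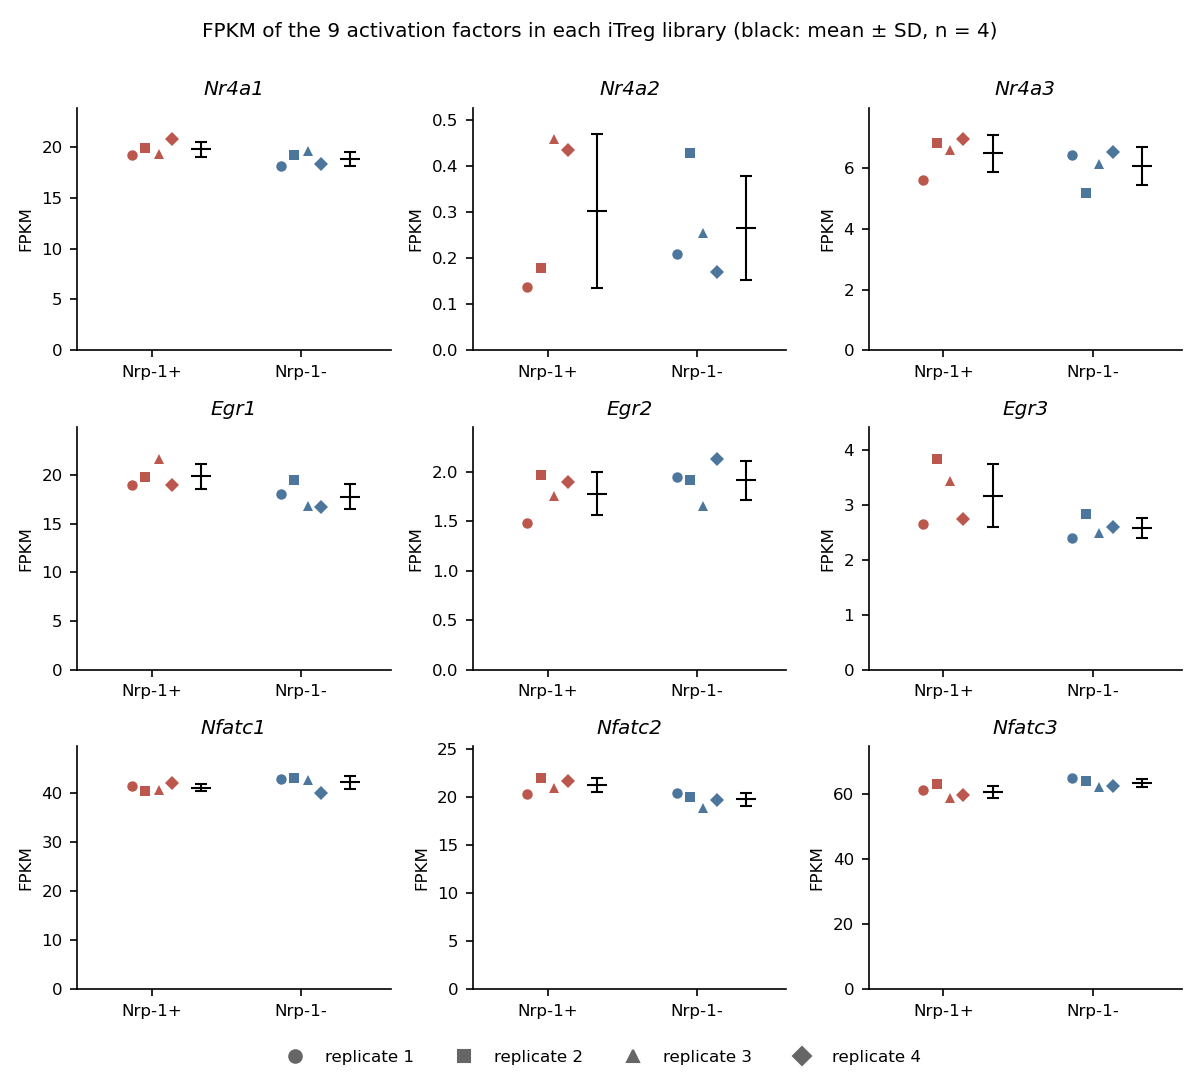
FPKM of the 9 members in each library, with Nrp-1+ iTreg in red and Nrp-1- iTreg in blue, the replicate number as the shape of the point, and the mean ± SD of 4 libraries in black. Every y axis starts at 0 and has its own scale. The groups overlap for all 9 genes, from Nr4a2 at 0.138 to 0.459 FPKM to Nfatc3 at 58.8 to 64.9 FPKM.

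NFAT genes carry the calcium signal into the nucleus. Nfatc2 (NFAT1, chr2:168476410-168601657) is the form resting T cells already hold, and here it was read at 20.3, 22.0, 20.9 and 21.7 FPKM in the 4 Nrp-1+ libraries and at 20.4, 20.0, 18.9 and 19.7 FPKM in the 4 Nrp-1- libraries. Of the Nrp-1+ libraries 3 stood above all Nrp-1- libraries, and replicate 1 fell just inside their range. The mean was 21.2 ± 0.743 against 19.7 ± 0.659 FPKM, a log2 fold change of 0.10 (SE 0.03, 95% interval 0.02 to 0.18, adjusted p = 0.0459 by limma). The exact permutation test of the same means gave p = 0.0571 (two-sided, where 4 against 4 libraries cannot go below 0.029). The call rested on the setting and on single libraries: with 1 library left out the adjusted p ran from 0.0299 to 0.111 and stayed under 0.05 in 2 of 8 fits, those without Nrp-1+ replicate 1 or Nrp-1- replicate 1, and it was 0.0644 with no filter on low genes, 0.0836 after quantile normalization and 0.0548 without the intensity trend. The genes whose profiles over the 8 libraries lay nearest to that of Nfatc2 were Nek7, Trim24 and Cpsf2, at mean distances of 0.015, 0.017 and 0.019 on the log2 scale, where the median over all genes tested was 0.10. They were picked for the smallest distances, so lying under the median follows from the choice, and shared control was not tested.

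Nfatc1 (NFAT2, on chromosome 18) is induced by NFAT itself in activated T cells. Its values were 41.4, 40.5, 40.6 and 42.0 FPKM in Nrp-1+ iTreg and 42.9, 43.1, 42.7 and 40.1 FPKM in Nrp-1- iTreg. In Nrp-1- iTreg 3 libraries stood above all Nrp-1+ libraries and replicate 4 stood below them all. The log2 fold change was -0.03 (95% interval -0.10 to 0.03, adjusted p = 0.352 by limma).

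Nfatc3 (NFAT4, chr8:106058840-106130537), the most abundant of the 9, was read at 61.2, 63.0, 58.8 and 59.8 FPKM in Nrp-1+ iTreg and at 64.9, 63.9, 62.2 and 62.5 FPKM in Nrp-1- iTreg. Only Nrp-1+ replicate 2 reached into the Nrp-1- range. The means, 60.7 ± 1.84 and 63.4 ± 1.26 FPKM, gave a log2 fold change of -0.06 (95% interval -0.12 to 0.00040, adjusted p = 0.103 by limma), and without Nrp-1+ replicate 2 the adjusted p was 0.0437. When the short RNA genes were left out and each library was rescaled, the log2 fold changes of Nfatc1 and Nfatc3 became 0.03 and 0.00040.

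A ratio of relatives within a library does not depend on how that library was scaled, apart from the pseudocount, so the balance inside each family was compared over 9 pairs. The groups were apart for 1 pair. The log2 ratio of Nfatc2 to Nfatc3 lay between -1.54 and -1.42 in Nrp-1+ iTreg and between -1.67 and -1.62 in Nrp-1- iTreg, so all 4 Nrp-1+ libraries were higher. The mean difference was 0.16 and the exact permutation p was 0.029, the smallest this design allows, but 0.193 after adjustment over the 9 pairs. For Nfatc1 over Nfatc2 the difference was -0.13 (exact permutation p = 0.0571, adjusted 0.193). With 4 libraries a group a pair on its own could not pass the threshold after adjustment over 9 pairs, and none did.

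EGR genes code for zinc finger factors. Egr1 (on chromosome 18), an early response gene of growth and receptor signals, was read at 19.0, 19.8, 21.7 and 18.9 FPKM in Nrp-1+ iTreg and at 18.1, 19.5, 16.8 and 16.7 FPKM in Nrp-1- iTreg. Nrp-1+ replicates 2 and 3 stood above all Nrp-1- libraries, and Nrp-1- replicate 2 reached into the Nrp-1+ range. The mean was 19.8 ± 1.28 against 17.8 ± 1.28 FPKM, with a log2 fold change of 0.15 (SE 0.06, 95% interval 0.02 to 0.29, adjusted p = 0.0706 by limma, exact permutation p = 0.0857). Without Nrp-1- replicate 2 the log2 fold change was 0.19 and the adjusted p was 0.0273.

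Egr2 (chr10:67535475-67542188) and Egr3 (chr14:70077203-70082614) restrain T cell activation and were both low. Egr2 was read at 1.48, 1.97, 1.75 and 1.90 FPKM in Nrp-1+ iTreg and at 1.94, 1.92, 1.66 and 2.13 FPKM in Nrp-1- iTreg. Egr3 was read at 2.65, 3.84, 3.43 and 2.75 FPKM in Nrp-1+ iTreg and at 2.40, 2.83, 2.48 and 2.59 FPKM in Nrp-1- iTreg. The Egr2 groups lay across each other, while Nrp-1+ replicates 2 and 3 held the 2 highest values of Egr3. The log2 fold change was -0.07 for Egr2 (95% interval -0.25 to 0.11, adjusted p = 0.513 by limma) and 0.21 for Egr3 (95% interval -0.01 to 0.43, adjusted p = 0.117 by limma), whose mean of 3.17 ± 0.566 against 2.58 ± 0.188 FPKM was the largest relative difference among the members tested, at 22.9%. Single libraries moved both values, Egr2 to -0.02 without Nrp-1+ replicate 1, -0.03 without Nrp-1- replicate 4 and -0.11 without Nrp-1- replicate 3, and Egr3 to 0.14 without Nrp-1+ replicate 2. The ratio of Egr2 to Egr3 differed by -0.28 on the log2 scale and that of Egr1 to Egr2 by 0.22, each with an exact permutation p of 0.0857 and 0.193 after adjustment. Egr3 rested on a median of about 208 fragments per library, a counting error of 6.94%, and Egr2 on about 109.

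NR4A genes code for orphan nuclear receptors that act without a ligand, so that their activity is set largely by their amount. Nr4a1 (Nur77, chr15:101254269-101274795), the gene behind common reporters of antigen receptor signal, was read at 19.2, 19.8, 19.2 and 20.7 FPKM in Nrp-1+ iTreg and at 18.1, 19.1, 19.6 and 18.3 FPKM in Nrp-1- iTreg. Nrp-1- replicate 3 stood above 2 of the Nrp-1+ libraries, and the other 3 Nrp-1- libraries stood below them all. The mean of 19.7 ± 0.716 against 18.8 ± 0.694 FPKM gave a log2 fold change of 0.07 (SE 0.04, 95% interval -0.01 to 0.15, adjusted p = 0.151 by limma).

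Nr4a3 (Nor1, chr4:48045153-48086447) was read at 5.59, 6.81, 6.57 and 6.94 FPKM in Nrp-1+ iTreg and at 6.43, 5.17, 6.12 and 6.52 FPKM in Nrp-1- iTreg. Of the Nrp-1+ libraries 3 stood above all Nrp-1- libraries and replicate 1 stood within their range, and the log2 fold change was 0.08 (95% interval -0.10 to 0.27, adjusted p = 0.437 by limma). The value was 0.02 without Nrp-1- replicate 2 and 0.14 without Nrp-1+ replicate 1. Nr4a2 (Nurr1, chr2:57106830-57124003) did not reach the mean of 1 FPKM required for the test, at 0.138, 0.180, 0.459 and 0.435 FPKM in Nrp-1+ iTreg and 0.210, 0.428, 0.256 and 0.171 FPKM in Nrp-1- iTreg. Those values stand for about 9.3 to 37.1 fragments, and a counting error of 25.3% at the median (log2 fold change 0.04, SE 0.10, 95% interval -0.20 to 0.27, adjusted p = 0.831 in a limma fit of all genes above 0). The ratios among the NR4A genes differed by -0.05 to 0.03 on the log2 scale between the subsets, with adjusted exact permutation p of 0.857 for each of the 3 pairs.

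The members also differed in how steady they were. Within groups, the SD on the log2 scale was 0.036 for Nfatc3, 0.038 for Nfatc1, 0.047 for Nfatc2 and 0.050 for Nr4a1, below the median of 0.066 over all genes tested, and it was 0.092 for Egr1, 0.11 for Egr2, 0.13 for Nr4a3, 0.15 for Egr3 and 0.16 for Nr4a2. The order follows the fragments behind each gene only in part, since Egr1, with a median of about 1634 fragments, spread more than Nr4a1 with about 943. The 1 FPKM added before the log shrinks the spread of low genes, so their order depends on the scale. In Nrp-1+ and Nrp-1- iTreg Nr4a2 was at 0.303 ± 0.167 and 0.266 ± 0.114 FPKM (SD). Egr2 was at 1.78 ± 0.215 and 1.91 ± 0.195, and Nr4a3 at 6.48 ± 0.609 and 6.06 ± 0.615.

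**Figure D3:**
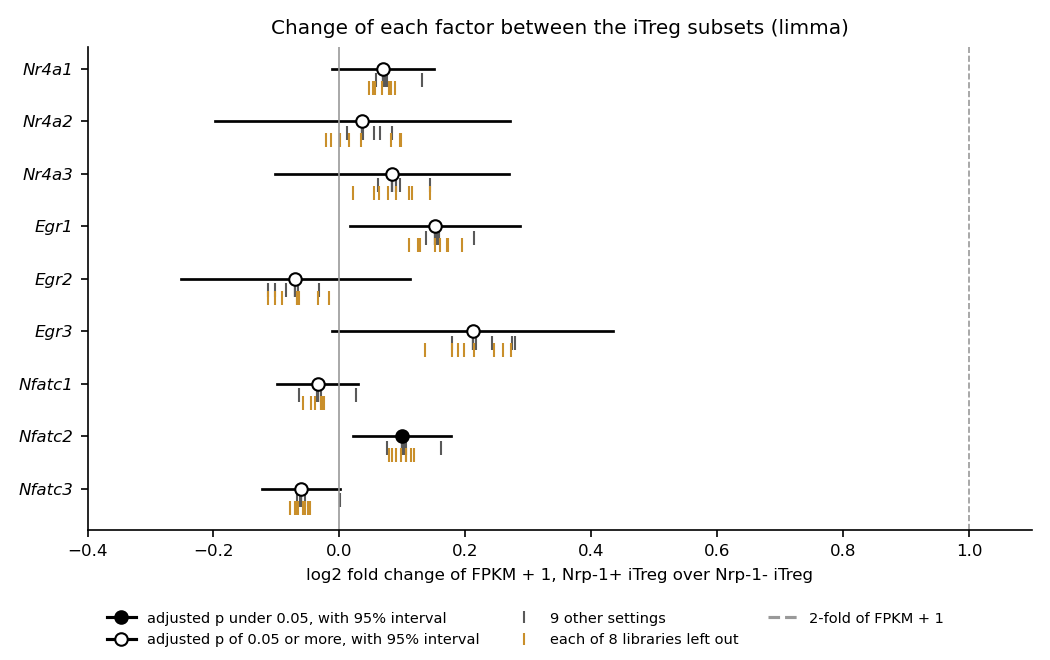
log2 fold change of FPKM + 1 (x axis, Nrp-1+ iTreg over Nrp-1- iTreg) for the 9 members, with 95% intervals from limma as lines, a filled point for an adjusted p under 0.05, grey ticks for 9 other settings and yellow ticks for each of 8 libraries left out. Nfatc2 alone is filled, at 0.10, and the grey ticks of Nfatc1 and Nfatc3 at 0.03 and 0.00040 are the fits without short RNA genes.

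The genes around these factors were then counted in 6 lists of 125 symbols in all, of which 99 could be tested. By limma 28 were higher and 19 lower in Nrp-1+ iTreg, 47.5% in all beside 40.9% of all genes tested, with a median log2 fold change of -0.00032 beside -0.02. Fits without short RNA genes gave 35 higher and 8 lower for the same lists, so the balance of directions depends on scaling.

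Upstream of NFAT, in the calcium and calcineurin list, 5 of 19 tested genes were higher and 3 lower (42.1% called beside 40.9% of all genes tested, median -0.0046). Calm2 and Calm3 code for calmodulin, the calcium sensor that activates calcineurin, and were higher, Calm2 at 350 ± 7.03 against 254 ± 4.43 FPKM (log2 fold change 0.46, adjusted p = 2.10e-06 by limma) and Calm3 at 171 against 131 FPKM (0.38). Of the genes for proteins that bind and restrain calcineurin, Rcan3 was higher, at 31.1 against 27.7 FPKM, in all 17 alternative fits, and Rcan1, at 6.62 against 5.96 FPKM (adjusted p = 0.0439 by limma), kept its call in 6 of 17. Cabin1 of the same kind went the other way, at 12.1 against 12.9 FPKM (log2 fold change -0.09), and did not pass (adjusted p = 0.121 by limma). The calcium channel gene Orai2 (24.9 against 29.4 FPKM, log2 fold change -0.23) and the IP3 receptor genes Itpr3 (-0.16) and Itpr2 (-0.15) were lower. Both IP3 receptor genes lost the call without short RNA genes (adjusted p = 0.127 and 0.218), and Itpr2 also without Nrp-1- replicate 1 or 2. The calcineurin subunits Ppp3ca, Ppp3cb, Ppp3cc and Ppp3r1 did not pass the test, nor did the channel gene Orai1 or the calcium sensors Stim1 and Stim2.

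Among NFAT kinases, relatives and transport genes 4 of 12 were higher and 3 lower (58.3% called beside 40.9% of all genes tested, median 0.0062). Xpo1, the exportin that carries NFAT and many other proteins out of the nucleus, was at 54.0 ± 2.21 against 40.2 ± 1.83 FPKM (log2 fold change 0.42, adjusted p = 0.000102). Nfatc2ip, a protein that binds NFAT1, was at 14.7 against 10.4 FPKM (0.46) and the scaffold gene Homer3 at 3.98 against 2.77 (0.40), and the importin gene Kpnb1 was the fourth, at 82.6 against 73.5. All that were lower code for kinases that phosphorylate NFAT: Dyrk2 at 16.6 ± 0.844 against 22.1 ± 1.22 FPKM (log2 fold change -0.40, adjusted p = 0.000333), Csnk1e at 5.13 against 6.04 (-0.20) and Csnk1d at 57.0 against 62.4 (-0.13). Gsk3a, Gsk3b, Csnk1a1 and Dyrk1a, kinases of the same group, did not pass. Without short RNA genes Dyrk2 remained lower (-0.34), and Csnk1e and Csnk1d no longer passed (adjusted p = 0.0568 and 0.212).

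Of the partners and upstream factors of NR4A and EGR proteins 3 of 19 were higher and 5 lower (42.1% called beside 40.9% of all genes tested, median -0.06). Rxra, a dimer partner of NR4A1 and NR4A2, was at 10.2 ± 0.875 against 7.74 ± 0.384 FPKM (log2 fold change 0.35, adjusted p = 0.00192). Nab1 (25.6 against 23.3) and Nab2 (39.1 against 36.1), corepressors that bind EGR proteins, were higher by 0.13 and 0.11 on the log2 scale. Lower were Mef2d (40.2 against 47.2 FPKM, -0.23), Srf (21.3 against 24.1, -0.17) and Crtc2 (24.7 against 27.2, -0.13), which drive immediate early genes, and Crtc3 and Rxrb. Without short RNA genes Srf and Crtc2 did not pass (adjusted p = 0.111 and 0.218), nor did Crtc3 and Rxrb, and Rxrb kept its call in 8 of 17 alternative fits.

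Of the genes that antigen receptor signal induces 11 of 33 were higher and 3 lower (42.4% called beside 40.9% of all genes tested, median 0.07). Pdcd1, coding for the inhibitory receptor PD-1, was at 6.43 ± 0.815 against 3.65 ± 0.269 FPKM (log2 fold change 0.67, adjusted p = 0.000360). Dusp4, a MAP kinase phosphatase (16.7 against 12.7 FPKM, 0.37), and the costimulatory receptor gene Tnfrsf9 (22.7 against 18.6, 0.27) followed. Ctla4 was lower (144 ± 2.85 against 160 ± 2.95 FPKM, -0.16), as were Cd200 (10.6 against 11.9) and Dusp5 (41.9 against 46.3), but Cd200 kept the call in 11 of 17 alternative fits and Dusp5 in 7 of 17, both losing it without short RNA genes (adjusted p = 0.145 and 0.223) and without single libraries of either group. Ctla4 lost it after quantile normalization.

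Of the anergy and exhaustion genes, many of which NFAT and NR4A proteins are known to control, 2 of 11 were higher and 5 lower (63.6% called beside 40.9% of all genes tested, median -0.07). Nrgn, a calmodulin-binding protein, was at 10.1 ± 0.628 against 4.80 ± 0.966 FPKM (log2 fold change 0.94, adjusted p = 0.000245), and Nt5e, coding for the ectoenzyme CD73, at 54.7 against 42.3 (0.36). Lag3, an inhibitory receptor gene, was at 2.78 against 4.20 FPKM (-0.46), the ubiquitin ligase gene Cblb at 29.0 against 37.0 (-0.34) and the diacylglycerol kinase gene Dgka at 221 against 258 (-0.22), and Itch and Ndrg1 were lower as well, Itch not without short RNA genes. Nrgn, Nt5e, Lag3, Cblb and Dgka were called the same way in each of the 17 alternative fits.

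Most NFAT-driven cytokines were hardly expressed: 12 of 17 were under the filter, among them Il2, Ifng and Il10. Il4, also under it, was listed at 0 in all Nrp-1+ libraries and at 0.121 to 0.448 FPKM in the Nrp-1- libraries (adjusted p = 0.0224 in the limma fit of all genes above 0). Il2 was listed at 0 in all Nrp-1- libraries and at 0 to 0.215 FPKM in the Nrp-1+ libraries (adjusted p = 0.217 in that limma fit). Such values lie near 0, and the fragments behind them were not estimated. Of the 5 above the filter, 3 were higher and 0 lower (60.0% called beside 40.9% of all genes tested). The 3 were Lif (3.55 against 2.36 FPKM, log2 fold change 0.44), Tnf (12.2 against 9.02, 0.40) and Cd40lg, coding for CD40 ligand (34.4 against 30.1, 0.19). Fewer cells that make a transcript and less of it per cell cannot be told apart in these bulk samples, here and in the results above.

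**Figure D4:**
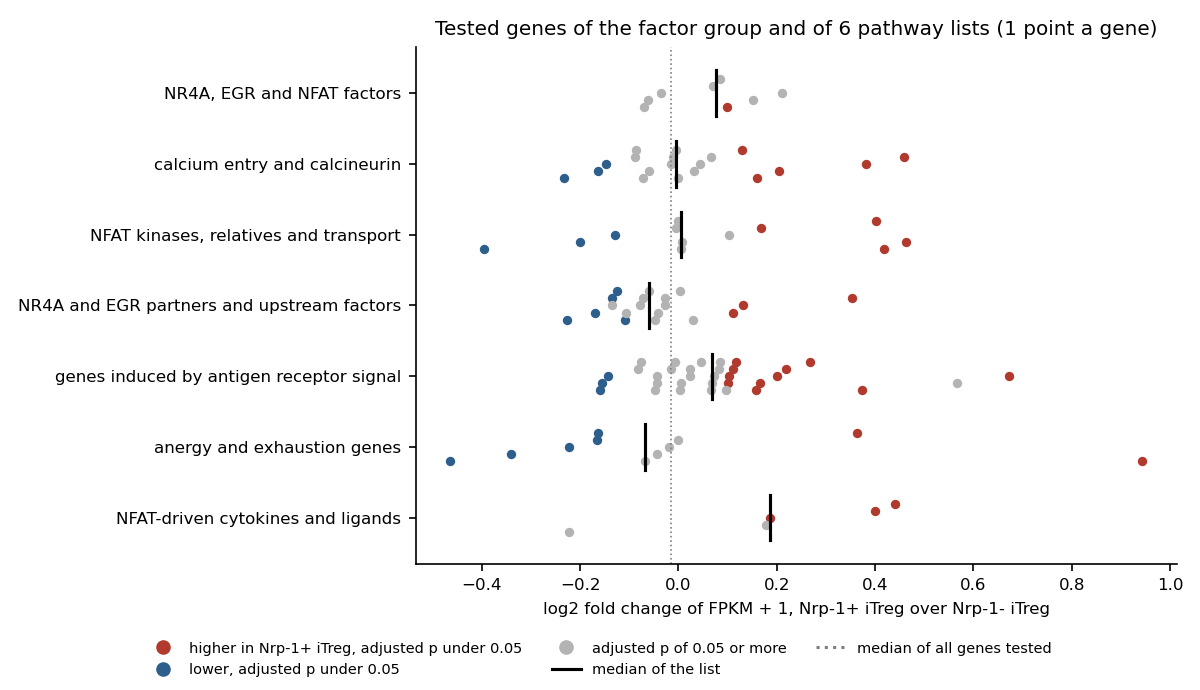
log2 fold change of FPKM + 1 (x axis, Nrp-1+ iTreg over Nrp-1- iTreg) for each tested gene of the factor group and the 6 lists, 1 point a gene, red where higher and blue where lower at an adjusted p under 0.05. Black bars are list medians and the dotted line is the median of all genes tested, -0.02. The 8 tested factors lie between -0.07 and 0.21, while the lists reach from -0.46 for Lag3 to 0.94 for Nrgn, and 8 in place of 19 list genes are lower without short RNA genes.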

How the data were processed

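RNA was sequenced from 4 libraries of each iTreg subset, Nrp-1+ and Nrp-1-, grouped by their labels. The authors used CLC Genomics Workbench, version 11.0.1, on the reads, calculated FPKM with Cufflinks and deposited 1 FPKM per gene symbol and library. The submitters' processing notes name GRCm38 and mm10. The annotation is not given in the sources used here, and the kit and the IL-2 dose differ between the labels and the paper. FPKM divides by length and by mapped fragments, and median-of-ratios size factors of the deposited values were 0.998 to 1.004.

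The members and lists were chosen with earlier results of these data known. The test was limma 3.58.1 in R 4.3.3 (lmFit, then eBayes with trend, two-sided) for the 10467 genes, out of 23361, that averaged 1 FPKM or more, on a log2(FPKM + 1) scale, with Benjamini-Hochberg adjustment over all of them, and called at an adjusted p under 0.05. The pseudocount of 1 understates changes of low genes. A member under the filter came from a fit of all genes above 0. The fit was tested on simulated data. Exact permutation tests used scipy 1.17.1 and Python 3.11.15. Named are all members, Nrp1, Treg markers, the 3 nearest profiles of a called member, and in each list the called genes with the greatest change, up to 3 upward and 3 downward. The values of 1 such list gene are not reported here. Kpnb1, Rcan1, Rcan3, Rxrb, Crtc3, Itch, Ndrg1, Il4 and the list genes given as not passing were named after their values were seen. Motifs were searched on both strands of RefSeq windows, and gene spans are from GENCODE M21.

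Depth was read from genes under 0.3 FPKM, where values move in steps of 1 fragment. Fragment numbers are approximate and cover counting error only. No pair of replicates held copied values: their variance was 2.19 to 3.26 times the counting error. That does not show whether they came from separate mice or cultures. Alternatives were pseudocounts of 0.1 and 0.5, no filter or one at 5 FPKM, median-of-ratios size factors, quantile normalization, short RNA genes (788 symbols) left out with rescaling, a replicate block, eBayes without trend, the Mann-Whitney test and each library left out.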

Additional observations from a re-analysis of the deposited data

Results flagged for a closer look

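In each group of 4 libraries the highest and lowest values of the members, named genes and depth were compared with the other 3 by Dixon's criterion. Of 84 groups examined 10 had a library that stood apart, where chance gives about 4.2, or 1 in 20. Among the members this was Nfatc1, at 40.1 FPKM in Nrp-1- replicate 4 against 42.7 to 43.1 in the other 3 libraries. Without that library its log2 fold change was -0.06 (adjusted p = 0.0742 by limma) in place of -0.03.

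Nrp-1+ replicate 4 stood apart for 5 genes, namely Calm2 (339.2 FPKM against 352.1 to 354.4), Rxra (11.5 against 9.64 to 9.95), Nab1 (24.5 against 25.9 to 26.1), Mef2d (43.7 against 38.7 to 39.4) and Srf (22.6 against 20.8 to 21.0). Without it their log2 fold changes were 0.47, 0.30, 0.15, -0.27 and -0.20, each still called by limma. Nrp-1- replicate 1 stood apart for Itpr3 (20.0 FPKM against 19.2 to 19.3) and Ctla4 (155.6 against 161.3 to 161.7), and Nrp-1- replicate 3 for Tnf (9.94 against 8.63 to 8.85), and the calls of these genes were kept without those libraries. The relative depth of Nrp-1+ replicate 3 was 1.22, while the other 3 were at 0.994 to 1.00.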

How the results depend on the processing

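Of the members, Nfatc2 was called in 5 of 9 other settings. None was called higher (0 members) with no filter, after quantile normalization, with the replicate block or without the intensity trend, and 4 were called higher when short RNA genes were left out and libraries rescaled: Nr4a1 (log2 fold change 0.13, adjusted p = 0.0367 by limma), Egr1 (0.21, 0.0105), Egr3 (0.28, 0.0331) and Nfatc2 (0.16, 0.0178). In that setting Nfatc1 turned to 0.0267 and Nfatc3 to 0.0004, the median of all genes moved from -0.02 to 0.04, and 2998 genes were higher and 1065 lower, 73.8% higher in place of 51.1%. List genes called lower were 8 there in place of 19. Leaving out each library gave 0 to 1 members higher and 0 to 1 lower, beside 35.8% to 38.0% of genes called, and Nr4a2 ran from -0.0209 to 0.0985. Over these fits the log2 ratio differed by -0.0172 to 0.102 for Nr4a1 to Nr4a2, by -0.0613 to 0.0575 for Nr4a1 to Nr4a3, by -0.116 to 0.0746 for Nr4a2 to Nr4a3 and by -0.101 to 0.0156 for Egr1 to Egr3. With a pseudocount of 0.1 the ratio of Nr4a1 to Nr4a2 differed by -0.0117. The cause of these changes was not tested beyond the construction of each fit. Of the 32 named list genes 22 kept their call in all 17 fits, 8 lost it without short RNA genes and none reversed.

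Same-numbered libraries did not deviate together: their deviations correlated at -0.537 to 0.0104, and at -0.108 to -0.0375 without short RNA genes. Whether same-numbered libraries share an origin is not stated. With the replicate block 1931 genes were higher and 1675 lower, in place of 2189 and 2093, and the adjusted p of Nfatc2 was 0.0842. Of the 32 list genes named by their rank of change 3 lost their call there, Mef2d (adjusted p = 0.0512 by limma), Cd200 (0.0515) and Dusp5 (0.104). Of the called genes named after their values were seen, Rcan1, Rxrb and Crtc3 lost theirs. Depth limits Nr4a2 in particular, with about 15.7 fragments at the median.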
